A study of Mus musculus with 2 samples.

Results

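miR-126a was measured by its 2 mature arms, mmu-miR-126a-3p and mmu-miR-126a-5p, which were taken by their probe names from the 1900 miRNAs on the array. Against the empty (BLANK) spots of the whole array, both arms were detected in the plasma extracellular vesicles (EVs) of both mouse strains, with the brighter spot for miR-126a-3p in each strain. Against the BLANK spots of its own block of the array, miR-126a-5p was not detected in the BALB/c EVs. The light around the spot was brighter than the spot for miR-126a-3p on both arrays and for miR-126a-5p on the BALB/c array. Without scaling of the arrays, mmu-miR-126a-3p read 177 and mmu-miR-126a-5p 121 in the C57BL/6 EVs, against 133 and 116 in the BALB/c EVs. Each strain had 1 array. The log2 ratio of C57BL/6 to BALB/c was 0.59 below the median of the 178 miRNAs detected in both strains for the 3p arm. It was 1.24 below that median for the 5p arm. From the noise of the BLANK spots alone, these positions ranged from -1.07 to -0.01 for the 3p arm. For the 5p arm they ranged from -2.48 to 0.47, which includes the median. With normexp, a background correction that starts from the light around each spot, and quantile normalization together, the 3p arm lay 0.08 below that median and the 5p arm 0.17 above it. This method adds an offset of 50 before the log2, which draws ratios toward 0. Its values are thus not on the scale of the others. With the BLANK spots of its own block as background the 3p arm lay 0.23 below.

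The gene of miR-126a lies inside Egfl7, which encodes a protein secreted by endothelial cells, and its RNA is made mainly in endothelial cells and in cells of the blood lineage, platelets included. The hairpin precursor is cut by Drosha and Dicer into a duplex, of which the 3p arm is generally taken as the more abundant one. The 3p arm is known for restraining Spred1 and Pik3r2, inhibitors of the signal that vascular endothelial growth factor sends, and thereby for keeping vessels intact. The 5p arm is known for a role in endothelial proliferation through Dlk1, an inhibitor of Notch.

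Plasma was drawn 24 h after the left femoral artery and vein of male mice aged 8 weeks had been ligated and severed. The group C57BL/6, a strain whose blood flow recovers after the ligation, and the group BALB/c, a strain whose blood flow does not, each gave 1 array with a pool of 5 mice, and no group without ligation was measured. The labels give no allele or agent for either group. Since each strain had 1 array, the values carry neither an SD nor a p-value, and precision is limited by the number of arrays. The EVs came from whole plasma, in which vesicles of endothelial cells, platelets and other cells are mixed, so that fewer vesicles of 1 source and less miRNA per vesicle cannot be told apart. The labels name cells and another RNA kit as the source, while the methods describe plasma EVs and an exosome kit.

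On each array, a spot was read as Cy5 intensity in arbitrary units. The background was the mean of the empty BLANK spots. This was 98.3 with an SD of 3.62 for C57BL/6, and 102 with an SD of 4.02 for BALB/c. A miRNA was called detected above this mean plus 2 SD, that is above 106 and 111. By this rule 638 miRNAs (33.6%) were detected in the C57BL/6 EVs, 187 (9.84%) in the BALB/c EVs and 178 (9.37%) in both. Of the 896 BLANK spots, 59 (6.58%) were above the same threshold on each array. The share detected in the BALB/c EVs was thus not far above that of empty spots. No spot carried a scanner flag other than OK.

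The mature miR-126a-3p and the 2 arms of miR-126b are printed here because miR-126b is read from the opposite strand of the same place. The sequences are those of RefSeq on the mouse build GRCm38.p6, and capitals mark the seed, bases 2 to 8, with which a miRNA pairs with its targets.
miR-126a-3p, chr2:26591402-26591423, plus strand: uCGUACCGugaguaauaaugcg
miR-126b-5p, chr2:26591399-26591420, minus strand: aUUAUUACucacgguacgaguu
miR-126b-3p, chr2:26591363-26591385, minus strand: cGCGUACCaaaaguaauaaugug
In the precursor of miR-126a, capitals mark the 3p arm.
Mir126a hairpin, chr2:26591357-26591429, plus strand: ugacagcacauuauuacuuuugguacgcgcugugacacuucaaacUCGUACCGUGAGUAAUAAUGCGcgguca
miR-126a-3p and miR-126b-5p lie across from each other over 19 bases, all 19 of which are complementary, and their seeds differ. Of the 1900 miRNAs, 1614 had a mature sequence in the RefSeq table under the name on the array, and 0 of the others among them shared the seed of miR-126a-3p. miR-126a-5p is given by name only.

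miR-126a-3p was above the BLANK spots on both arrays, though not above the light around its own spot, which is given further on. Its spot intensity was 177 in the C57BL/6 EVs, which is 78.6 units or 21.7 SD above the BLANK mean. In the BALB/c EVs it was 133, which is 30.0 units or 7.48 SD above the BLANK mean. No BLANK spot of either array was as bright. By intensity, miR-126a-3p ranked 136 of the 638 miRNAs detected in the C57BL/6 EVs and 75 of the 187 detected in the BALB/c EVs. It was brighter than 78.7% of the detected miRNAs of the first array and 59.9% of those of the second. These ranks order probes that bind their RNA unequally well, so that they do not order amounts of miRNA.

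miR-126a-5p was dimmer and lay close to the threshold in the BALB/c EVs. Its spot intensity was 121 in the C57BL/6 EVs, 22.4 units or 6.18 SD above the BLANK mean. In the BALB/c EVs it was 116, 13.5 units or 3.36 SD above that mean. It ranked 291 of 638 and 135 of 187. Of 896 BLANK spots, 1 was at least as bright on the C57BL/6 array and 5 were on the BALB/c array.

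The probes of miR-126b, on the opposite strand, were not above the threshold on either array. They lie in block 4 of the array and those of miR-126a in block 8. The spots of miR-126b thus do not show the background of the miR-126a block. miR-126b-3p read 94.5 in C57BL/6 EVs and 98.0 in BALB/c EVs, and miR-126b-5p read 93.5 and 104. The BLANK means were 98.3 and 102, so that 3 of these 4 spots were dimmer than an average empty spot.

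**Figure D1:**
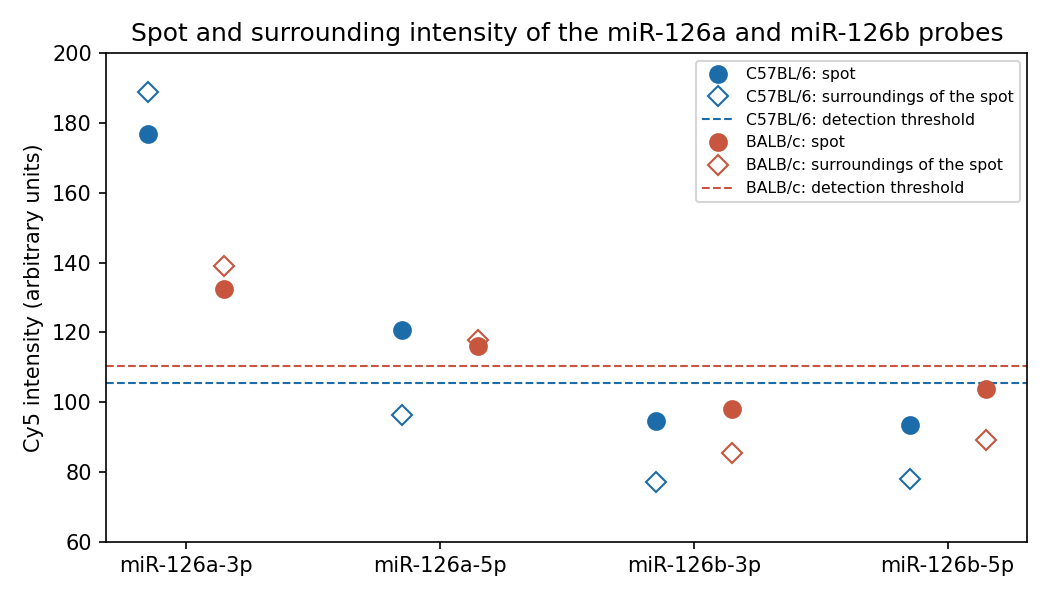
Cy5 intensity in arbitrary units (vertical axis) of the probes of miR-126a and miR-126b (horizontal axis) on the C57BL/6 array (blue) and the BALB/c array (red), with filled points for the spot, open diamonds for its surroundings and dashed lines for the detection thresholds of 106 and 111. Both miR-126a arms lie above the thresholds and both miR-126b arms below, and the surroundings of miR-126a-3p are brighter than its spot on both arrays.

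The surroundings of the miR-126a-3p spot were brighter than the spot itself. The local background around it was 189 against a spot of 177 on the C57BL/6 array, and 139 against 133 on the BALB/c array. Around miR-126a-5p it was 96.3 against a spot of 121 on the C57BL/6 array, and 118 against 116 on the BALB/c array. Among the 178 shared miRNAs, the local background reached the spot intensity for 7 on the C57BL/6 array and for 9 on the BALB/c array, and for 2 on both, miR-126a-3p and miR-15b-5p, of which the latter was singled out after its values were seen. The median local background of the shared miRNAs was 75.3% of the spot intensity on the C57BL/6 array and 81.0% on the BALB/c array. After subtraction of the local background, miR-126a-3p had no positive signal on either array and miR-126a-5p had none on the BALB/c array. In the order of all 1900 miRNAs, miR-126a-3p ranked 136 and 75 by spot intensity, and 1897 and 1832 after normexp and quantile normalization, which start from the local background. The levels and ratios of miR-126a rest on the BLANK spots as background, except where normexp or subtraction of the local background is named.

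The part of the array that holds both probes was bright in the BALB/c EVs. Both lie in block 8 of 32, in columns 7 and 8 of row 1. The 28 BLANK spots of this block averaged 108 (SD 5.79) on the BALB/c array, the highest mean of the 32 blocks, whose means ran from 95.9 to 108. On the C57BL/6 array their mean ranked 6 of the 32, with an SD of 4.29. Of these 28 empty spots, 9 were above the detection threshold on the BALB/c array and 3 on the C57BL/6 array. Measured against the BLANK spots of its own block, a comparison added after the data were seen, miR-126a-3p lay 17.9 SD above background in C57BL/6 EVs and 4.32 SD in BALB/c EVs. By the same measure miR-126a-5p lay 4.82 SD above background in C57BL/6 EVs and 1.46 SD in BALB/c EVs, where 3 of the 28 BLANK spots of the block were at least as bright. Detection of miR-126a-5p in the BALB/c EVs therefore depended on which BLANK spots served as background, while that of miR-126a-3p did not.

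The comparison of the strains asked whether the level of miR-126a in plasma EVs differed between mice that recover their blood flow and mice that do not. Before any scaling, the signal of miR-126a-3p was 2.62-fold higher in the C57BL/6 EVs. When 2 BLANK SDs were taken from one signal and added to the other, in either order, this ran from 1.87-fold to 3.90-fold. The signal of miR-126a-5p was 1.66-fold higher in the C57BL/6 EVs, with a range of 0.703 to 5.43 that includes equality. These ranges cover the noise of empty spots and not the spread between mice or arrays.

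The shared miRNAs as a whole were brighter in the C57BL/6 EVs. With both arrays scaled to the same 75th percentile of the 178 shared miRNAs, which divides the ratio by 5.32, miR-126a-3p was 2.03-fold higher in the BALB/c EVs (range 1.36 to 2.84) and miR-126a-5p was 3.21-fold higher there (range 0.980 to 7.57). Both arms passed 2-fold on this scale, as did 36.5% of the shared miRNAs. miR-126a-3p did not pass it when the shared median set the scale, where it was 1.73-fold higher in the BALB/c EVs, nor with the BLANK spots of the own block, where the C57BL/6 level was 0.587 of the BALB/c level. The direction depended on the scaling. On the authors' scale, which sets the median of the detected miRNAs of each array to 25, miR-126a-3p had values of 99.4 and 31.7 and was 3.14-fold higher in the C57BL/6 EVs, while miR-126a-5p had values of 28.3 and 14.2 and was 1.99-fold higher there. On this scale 82.6% of the shared miRNAs were over 2-fold higher in the C57BL/6 EVs. The spike controls were brighter in C57BL/6 by 1.71-fold and 1.91-fold. Scaled on them, miR-126a-3p was 1.45-fold higher in the C57BL/6 EVs and the ratio of miR-126a-5p was 0.919.

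**Figure D2:**
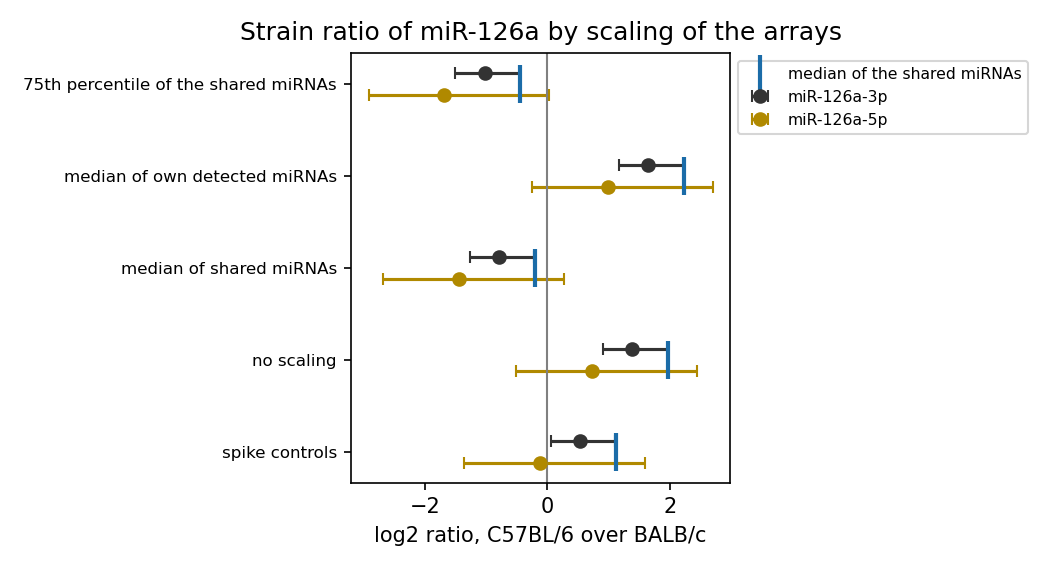
log2 ratio of C57BL/6 to BALB/c (horizontal axis) of miR-126a-3p (black) and miR-126a-5p (yellow) under 5 ways of scaling the arrays (vertical axis), with bars for the range that 2 BLANK SDs on each signal allow and a blue line for the median of the 178 shared miRNAs. The points move from one side of 0 to the other with the scaling. Both lie to the left of the blue line at a distance that is the same under each of the 5 by construction. The bar of miR-126a-5p crosses that line.

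The position of miR-126a among the shared miRNAs does not move with a factor common to an array. In the order of the ratio of C57BL/6 to BALB/c from the highest, miR-126a-3p ranked 115 and miR-126a-5p ranked 149 of the 178. Set against the median over the shared miRNAs, the log2 ratio of miR-126a-3p was -0.59 with a range of -1.07 to -0.01, and that of miR-126a-5p was -1.24 with a range of -2.48 to 0.47. The range of miR-126a-5p thus included the median. With the BLANK spots of the own block, miR-126a-3p stood at -0.23 and ranked 101 of 178. With normexp and quantile normalization, which changed the background and the scaling together, miR-126a-3p stood at -0.08 and ranked 114, while miR-126a-5p changed sign to 0.17 and ranked 51. The offset of 50 in this method draws ratios toward 0, so that the log2 values do not compare with those before. After subtraction of the local background, miR-126a-3p had no positive signal on either array and miR-126a-5p had none on the BALB/c array. By normexp and quantile normalization, miR-126a-3p ranked 1897 and 1832 of the 1900 miRNAs in intensity, and miR-126a-5p ranked 1757 in the BALB/c EVs. The ratio ranks of 114 and 51 and the change of sign thus rest in part on values near the lower end of the array. Against miRNAs of like brightness both arms were closer to the middle. Of 57 other shared miRNAs within 2-fold of the C57BL/6 signal of miR-126a-3p, 22 had a lower ratio, and their median log2 ratio was -0.77 against -1.02 for miR-126a-3p. Of 46 within 2-fold of the C57BL/6 signal of miR-126a-5p, 21 had a lower ratio, with a median of -1.55 against -1.68. With the window placed on the BALB/c signal, 32 of 78 and 20 of 95 had a lower ratio, with medians of -0.70 and -0.61. These log2 values are on the scale of the shared 75th percentile.

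**Figure D3:**
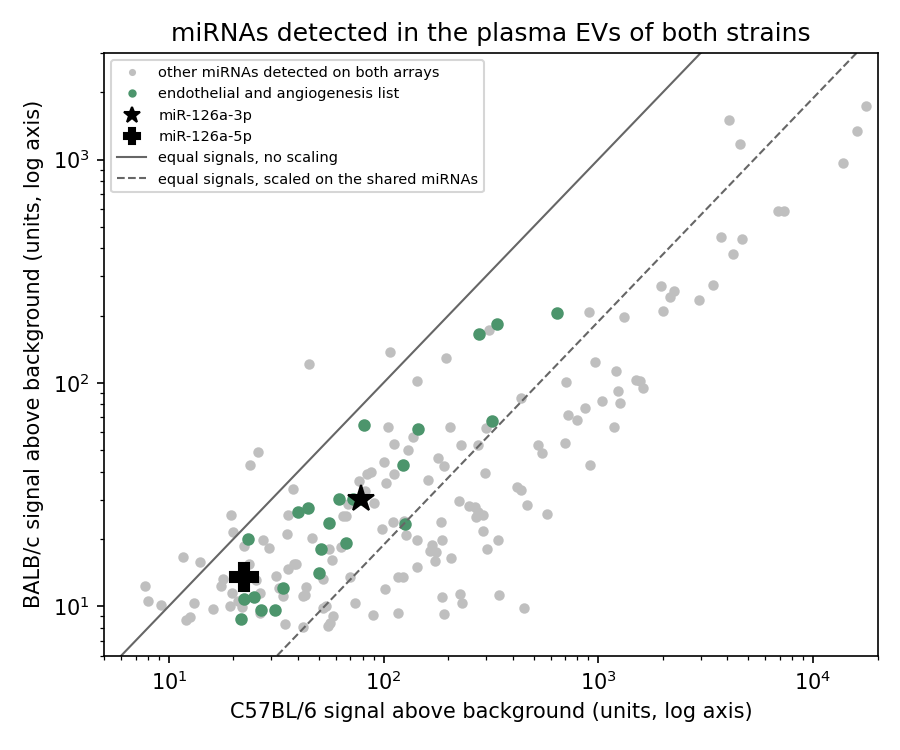
BALB/c signal (vertical axis) against C57BL/6 signal (horizontal axis), both in units above the BLANK mean on log axes, for the 178 miRNAs detected in both strains, with miR-126a-3p as a star, miR-126a-5p as a cross and the other endothelial and angiogenesis miRNAs in green. Both miR-126a points lie between the line of equal signals without scaling (solid) and the line of equal signals after scaling on the shared miRNAs (dashed).

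The arms of miR-126a were compared with the arm pairs of other miRNAs, since both arms come from 1 hairpin. The signal of miR-126a-3p was 3.51 times that of miR-126a-5p in the C57BL/6 EVs, with a range of 2.41 to 5.67. In the BALB/c EVs it was 2.23 times as large, with a range of 1.02 to 6.98. With normexp and quantile normalization the 3p arm was the dimmer one on both arrays. These are ratios of the light of different probes and not of molecules. The array held 726 pairs of a 3p and a 5p probe of the same name. Both arms were detected for 110 pairs in C57BL/6 EVs and for 6 in BALB/c EVs. The 3p arm was the brighter one in 34 of the 110, and miR-126a had the ratio of 3p to 5p that ranked 10. In the BALB/c EVs the 3p arm was brighter in 3 of the 6, and miR-126a ranked 2, after miR-133a, a muscle miRNA.

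The ratio of the arms between the strains cancels a factor common to a probe or to an array, but not the choice of background. It was 1.58-fold higher in the C57BL/6 EVs, a log2 difference of 0.66 with a range of -1.53 to 2.47. This range includes 0, so that a shift between the arms was not detectable at these intensities. With normexp and quantile normalization the log2 difference was -0.25. With the BLANK spots of the own block it could not be formed, since miR-126a-5p was not detected in the BALB/c EVs. Both arms were detected in both strains for 5 hairpins. For miR-143, which is abundant in smooth muscle, the 3p and 5p spots were 143 and 134 in C57BL/6 EVs, and 130 and 117 in BALB/c EVs, and the log2 difference was -0.61. The difference was 0.02 for miR-133a, 2.14 for miR-6916 and -0.81 for miR-7045. miR-126a lay inside the span of these pairs.

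Among the endothelial and angiogenesis miRNAs, 7 hairpins had both arms detected in the C57BL/6 EVs. The 3p arm was the brighter one for miR-23a at 436 against 108, for miR-126a and for miR-143. The 5p arm was the brighter one for miR-296 at 225 against 108, for miR-17 at 154 against 107, for miR-93 at 149 against 106 and for miR-125a at 118 against 115.

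**Figure D4:**
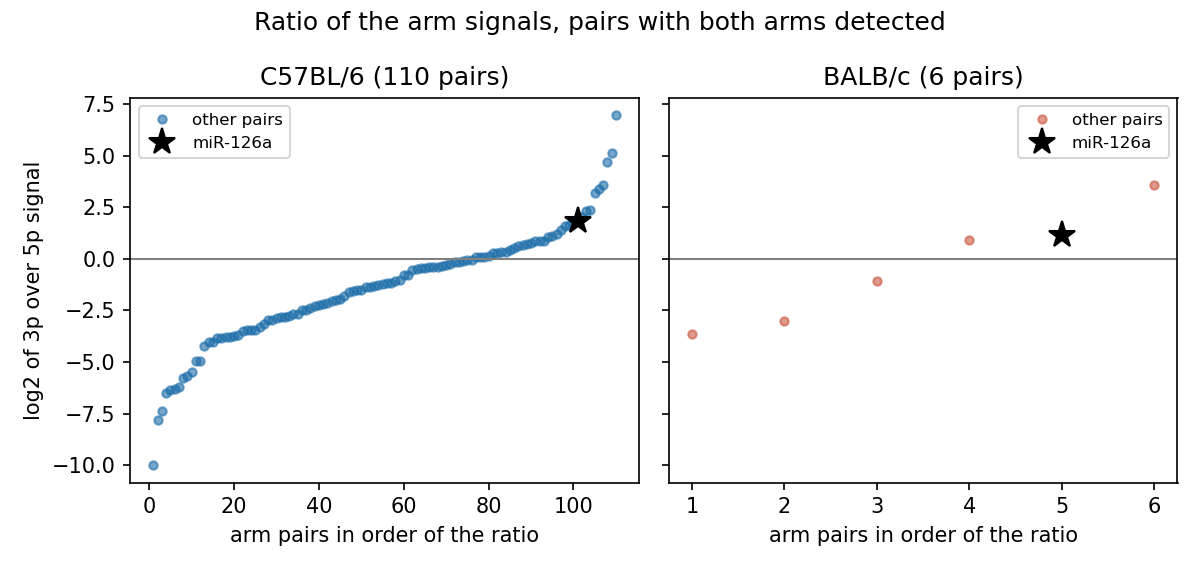
log2 ratio of the 3p to the 5p signal (vertical axis) for each hairpin with both arms detected, in order of the ratio (horizontal axis), with 110 hairpins in the C57BL/6 EVs (left) and 6 in the BALB/c EVs (right). miR-126a, shown as a star, lies on the 3p side of 0 on both arrays.

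The miRNAs with levels most like those of miR-126a-3p were found by the distance of the log2 scaled signals over the 2 arrays. The nearest was miR-19b-3p of the miR-17-92 cluster, whose spots read 170 in C57BL/6 EVs and 133 in BALB/c EVs, at a distance of 0.13. let-7d-5p followed with 180 and 135, at a distance of 0.14. let-7a-5p, let-7b-5p and miR-30b-5p came next at distances of 0.21, 0.21 and 0.28. For miR-126a-5p the nearest was miR-378b, with 124 and 116, at a distance of 0.19. miR-291b-5p followed with 122 and 118, at a distance of 0.21. miR-365-3p, miR-7224-5p and miR-10a-5p lay at 0.31, 0.32 and 0.32. With 2 arrays, such likeness describes brightness and little else.

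Within a list of 45 endothelial and angiogenesis miRNAs, both arms of miR-126a belonged to the 25 detected in both strains, as were 9.37% of all miRNAs on the array. A further 10 of the 45 were detected only in the C57BL/6 EVs, as were 24.2% of all miRNAs, among them miR-222-3p, which acts on the stem cell factor receptor Kit in endothelial cells, and 10 in neither, against 65.9%, among them miR-210-3p, a miRNA induced by hypoxia, and miR-155-5p. The list was written with earlier results of these data known and was not set against miRNAs of like brightness, so that its counts are descriptive. After scaling on the shared 75th percentile, 24 of the 25 had the higher level in the BALB/c EVs, against 58.4% of all shared miRNAs. With the shared median as the scale 23 of the 25 did, against 53.9%, and on the spike controls 6 did, against 19.7%. On the authors' scale 0 did, against 4.49%, and without scaling 0 did, against 6.18%. On the shared 75th percentile 15 of the 25 were over 2-fold higher in the BALB/c EVs, against 36.5% of all shared miRNAs. With the shared median as the scale, 9 were, against 25.8%, and 0 were on the other 3 scales. Set against the shared median, the median of the 25 was a log2 ratio of -0.72, and 23 lay below 0. The ratio was higher than that of miR-126a-3p for 10 of the 25 and higher than that of miR-126a-5p for 20.

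At the upper end of the list stood miR-296-5p, an angiogenesis miRNA, with spots of 225 and 126 (C57BL/6 first, then BALB/c) and a log2 ratio of 0.47 relative to the shared median. It was followed by miR-24-3p with 418 and 170, at 0.27, and by miR-20a-5p with 148 and 117, at -0.14. At the lower end stood miR-181a-5p with 122 and 123, at -1.74, miR-145a-5p, a smooth muscle miRNA, with 179 and 167, at -1.65, and miR-378a-3p with 138 and 129, at -1.39. miR-126a-5p lay close to the lower end and miR-126a-3p near the middle of the list.

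**Figure D5:**
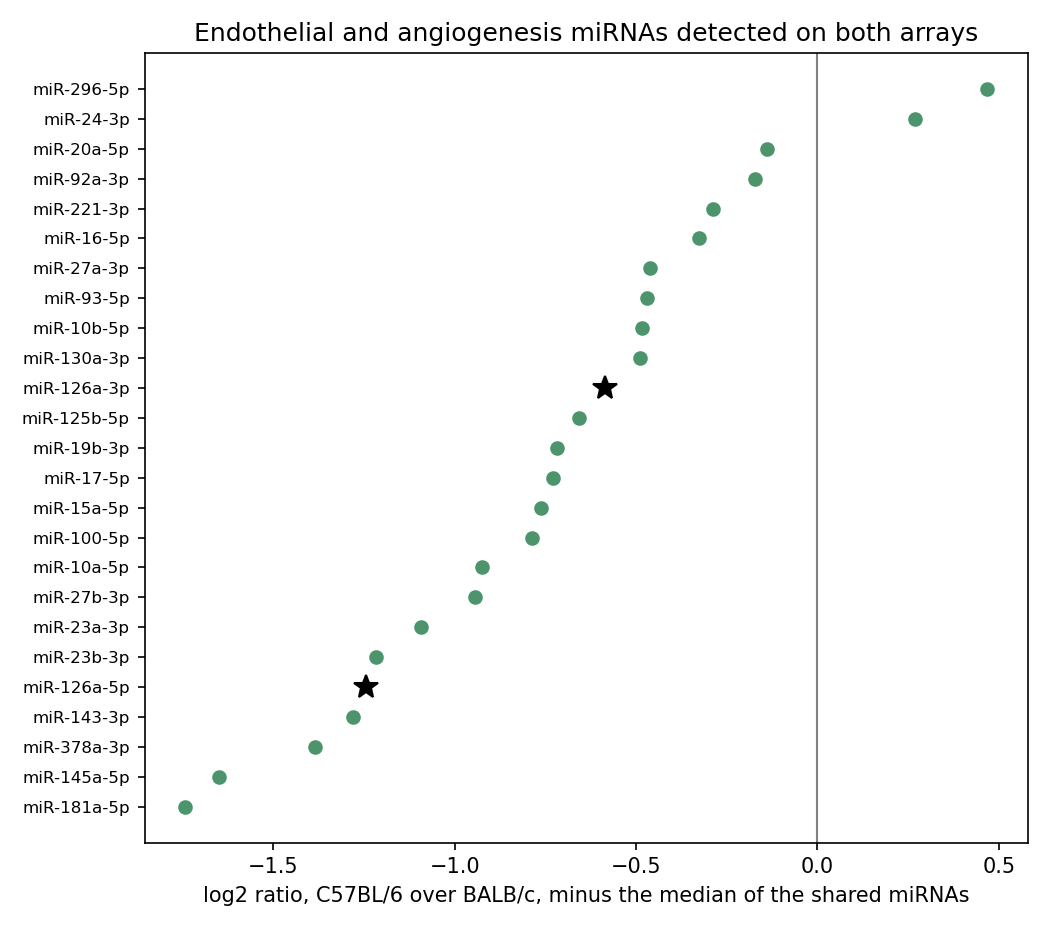
log2 ratio of C57BL/6 to BALB/c minus the median of the shared miRNAs (horizontal axis) for the 25 endothelial and angiogenesis miRNAs detected in both strains (vertical axis), with miR-126a-3p and miR-126a-5p as stars. Of the 25, 23 lie below 0, and miR-296-5p and miR-24-3p above.

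Since platelets and other blood cells also hold or release miRNA, the markers of other cells were set beside miR-126a by their ratio of C57BL/6 to BALB/c relative to the shared median. miR-451a, the defining miRNA of red blood cells, read 4180 in C57BL/6 EVs and 1603 in BALB/c EVs, with a log2 ratio of -0.53 against -0.59 for miR-126a-3p. miR-223-3p, a miRNA of platelets and myeloid cells, read 204 and 166, with a ratio of -1.24. The ratio of miR-126a-5p was also -1.24, with a range of -2.48 to 0.47. The platelet probes detected in both strains were spread from -1.63 for miR-199a-3p to 0.27 for miR-24-3p. miR-150-5p, a lymphocyte miRNA, read 152 and 113, with a ratio of 0.45, whereas the ratio was -0.45 for miR-142a-5p and -1.74 for miR-181a-5p, the other 2 leukocyte probes detected in both strains. miR-1a-3p, a muscle miRNA, read 124 and 151, with the lowest ratio of these markers at -2.88. miR-122-5p, the main liver miRNA, read 108 and 109 and was detected only in the C57BL/6 EVs.

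By list, 5 of 6 erythrocyte probes, 7 of 8 platelet probes, miR-126a-3p included, 3 of 6 leukocyte probes, 1 of 3 liver probes and 3 of 6 muscle probes were detected in both strains, against 9.37% of all miRNAs on the array. The summed signals above the BLANK mean of the C57BL/6 and BALB/c arrays were 5030 and 1819 for the erythrocyte probes, 1150 and 439 for the platelet probes, 214 and 70.5 for the leukocyte probes, 24.6 and 18.1 for the liver probes and 372 and 280.2 for the muscle probes. The median log2 ratio relative to the shared miRNAs was -0.45, -0.80, -0.45, -1.48 and -1.48 in turn. The part of these cells in the level of miR-126a was not tested.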

How the data were processed

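RNA of plasma EVs was hybridised to 3D-Gene miRNA oligo chips, 1 per strain. The deposited scanner output gives the median Cy5 intensity of each of 3200 spots and of the area around it, neither subtracted nor normalized, from 3 scanner gains. The deposited table of the authors holds an intensity for each miRNA they detected. How the authors made it is not stated in the sources used here. By comparison with the spots, it is the spot intensity minus the trimmed BLANK mean, times 1.26 for C57BL/6 and 1.06 for BALB/c, and 0 detection calls differed from those made here.

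Of 896 BLANK spots, 45 at each end (5%) were left out, which left 806. A ratio required detection in both strains. No test between the strains was made. The ratio calculation was checked on simulated spots with set ratios, which it recovered relative to the unchanged spots. Only spots further above the BLANK mean, in SD, than either arm of miR-126a in the BALB/c EVs were scored. Differences between blocks and in the local background were not simulated. The check thus does not cover spots as dim as those of miR-126a. Probes that carry 2 names were matched by either. Named miRNAs were both arms of miR-126a and of miR-126b, seed sharers, the 5 nearest in level to each arm, arm pairs and extremes of the endothelial list, and the defining cell markers. The members and lists were chosen with earlier results of these data known. Alternatives were detection at 3 SD, untrimmed BLANK spots, the authors' table, other scalings, local background, normexp (offset 50) with quantile normalization and, added later, BLANK spots of the own block. Python 3.11.15, numpy 2.4.6, pandas 2.3.3, matplotlib 3.10.9, R 4.3.3 and limma 3.58.1 were used.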

Additional observations from a re-analysis of the deposited data

How the results depend on the processing

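The direction of the strain ratios depended on the scaling. As a log2 ratio of C57BL/6 to BALB/c, the values of miR-126a-3p, of miR-126a-5p and of the median of the endothelial and angiogenesis list were -1.02, -1.68 and -1.16 on the shared 75th percentile. They were 1.65, 0.99 and 1.52 on the median of the own detected miRNAs and in the table of the authors, and 1.39, 0.73 and 1.25 without scaling. On the spike controls miR-126a-3p was at 0.54 and the list at 0.40. The list was at -0.92 on the median of the shared miRNAs, at -1.50 with detection at 3 SD (20 miRNAs left), at -1.46 with untrimmed BLANK spots (22 left) and at -1.55 with the local background subtracted (21 left).

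With normexp and quantile normalization, which start from the local background, the values were -0.10 for miR-126a-3p, 0.15 for miR-126a-5p, -0.25 for the difference between the arms (0.66 before) and -0.10 for the list. The offset of 50 draws these log2 values toward 0, so that their size cannot be set against the others. Those of miR-126a also rest on signals that were not positive over the local background, for miR-126a-3p on both arrays and for miR-126a-5p on the BALB/c array. The log2 ratio of 3p to 5p was then -0.28 for C57BL/6 and -0.030 for BALB/c, against 1.81 and 1.15 before, and the ranks among all miRNAs were 1897 and 1832 for miR-126a-3p and 528 and 1757 for miR-126a-5p. With the local background subtracted, miR-126a-5p ranked 528 in the C57BL/6 EVs and no ratio of either arm could be formed. With the BLANK spots of the own block, miR-126a-5p was not detected in the BALB/c EVs, so that its ratios were not formed. The other 62 values kept their direction and stayed within the range from the BLANK noise, or within 0.1 for the list. Many of these could not have moved. A factor common to an array changes neither the ranks nor the ratios between the arms. The ranks also do not depend on the BLANK mean of the whole array or on the detection threshold. In addition, the table of the authors repeats the scaling on the own detected miRNAs. No paired analysis was possible because each strain has 1 array, and no array could be left out. Low spot intensity above the BLANK spots limits miR-126a-5p.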

Other observations

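Spots dimmer than their surroundings were concentrated in the block of the miR-126a probes, a pattern noticed after the values were seen. On at least 1 of the arrays, the local background reached the spot intensity for 14 of the 178 shared miRNAs. Of the 14 shared miRNAs in block 8, 5 were among them (35.7%), against 9 of 164 in the other blocks (5.49%). Block 8 was singled out because it holds miR-126a, and both arms count among the 5, which raises its share. The 5 were miR-126a-3p, miR-126a-5p, let-7i-5p, let-7g-5p and miR-5132-5p. The first 4 are in neighbouring columns of row 1. In the grid of the block, the spots beside and below miR-126a-3p read 92.2 to 331 on the C57BL/6 array, with miR-709 the brightest, and 95.1 to 116 on the BALB/c array. The part of these neighbours in the intensity of miR-126a-3p was not tested.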
